A study of Pleurotus tuoliensis with 2 samples.

Results

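Transcripts of histones and of the proteins that modify, chaperone and remodel chromatin were followed in mycelia of *Pleurotus tuoliensis*, a cultivated oyster mushroom. A unigene, the longest assembled isoform of a Trinity subcomponent, was included when its mean level over the 6 libraries was above 1 FPKM (fragments scaled by transcript length and library size) and its Swiss-Prot protein name held the word histone, chromatin, nucleosome, SWI/SNF, INO80, SAGA or SWR1 without the word ubiquitin. This gave 88 of the 16496 unigenes above that level, out of 17030 in the table, and the limit on FPKM removed none of the unigenes with such a name. They were 12 core histones, 3 histone variants and linker histones, 3 chaperones and assembly factors, 30 enzymes or enzyme subunits that add or remove acetyl or methyl groups, 6 further subunits of modifying complexes, 32 remodelers and 2 other chromatin proteins.

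Both groups were mycelia of strain ACCC 50869 grown in the dark in bottles with 820 g of substrate. Immature mycelia were taken after 37 days at 25 °C, when the remaining bottles were moved to 17 °C (day 0), and mature mycelia were taken at day 35 of the 17 °C phase. Each group had 3 bottles picked at random, with 1 library per bottle. Age, temperature and maturity changed together, and their effects cannot be told apart.

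DNA in the nucleus is wound around nucleosomes, which are built from the core histones H2A, H2B, H3 and H4, and histone H1 binds the linker DNA between them. In most eukaryotes core histones are made largely while DNA is copied, whereas variants such as H2A.Z and the centromeric form of H3 are placed at chosen sites by dedicated chaperones and remodelers. Acetyltransferases and methyltransferases mark the histone tails, deacetylases and demethylases clear these marks, and remodelers use ATP to slide, evict or exchange nucleosomes. The role given below for each protein is that of its best match in Swiss-Prot, mostly from yeasts, and not one shown in *P. tuoliensis*.

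Core histones had the lowest median log2 ratio of the 10 classes of members. All 12 core histone unigenes had a log2 ratio (mature minus immature, of log2(FPKM + 1)) below 0, against 40 of the 76 other members and 57.7% of all unigenes tested. The median log2 ratio was −0.57 for the core histones, −0.01 for the other members and −0.07 for all unigenes tested. In 9 of the 12 core histones every mature bottle lay below every immature bottle, and in 0 of them above. Over all members the groups did not overlap in 22 unigenes that were lower in mature mycelia and in 11 that were higher, where the shares of all unigenes tested were 14.2% and 8.69%.

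At the thresholds of the study (unadjusted p up to 0.05 and a log2 ratio of 1 or more in either direction) 3 members fell and 1 rose in mature mycelia. The shares of all unigenes tested were 1.82% and 1.18%. The 3 that fell were core histones, an H2B and a pair of H3 unigenes, and the member that rose was EAF6, a subunit of a histone acetyltransferase complex. With the Benjamini-Hochberg adjustment of the limma test over all unigenes tested, 0 members had an adjusted p under 0.05 (0.0667% of all unigenes tested did), and the smallest value among the members was 0.12. At an unadjusted p of at most 0.05 there were 26 members, 16 lower and 10 higher, against 15.4% of all unigenes tested. Of the 12 core histones 8 were among the 16, and the other 8 were spread over 76 members. For 3 bottles per group the smallest p that an exact permutation test (two-sided) allows is 0.1, so none was run on single unigenes.

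**Figure D1:**
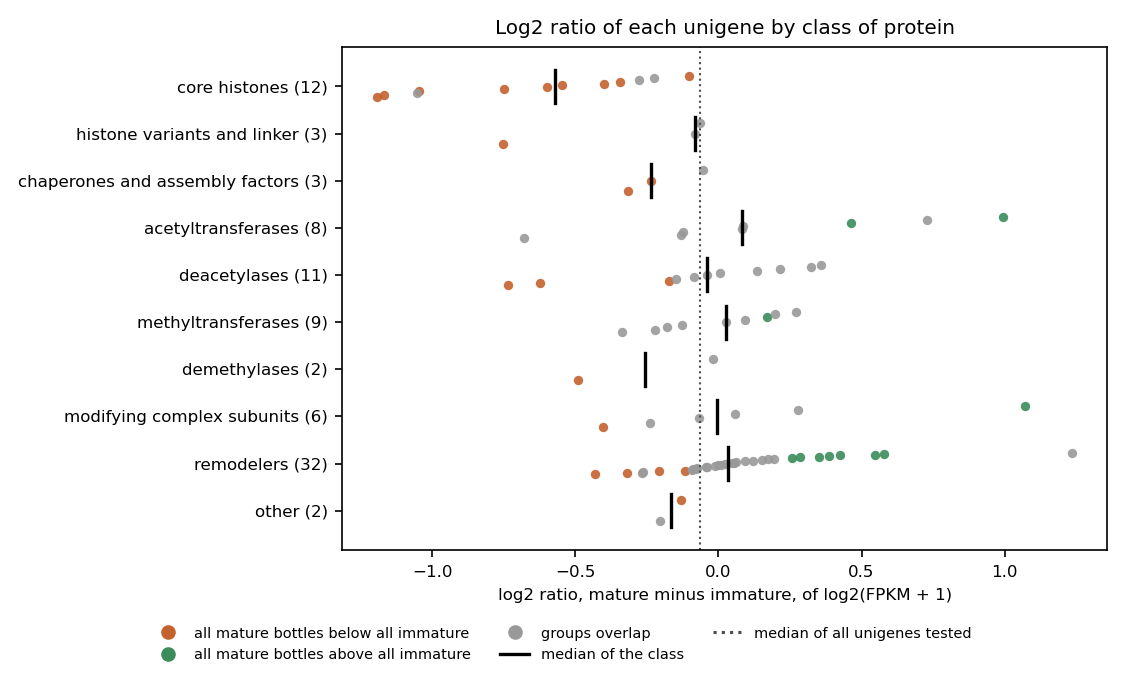
Log2 ratio of each of the 88 unigenes (mature minus immature, of log2(FPKM + 1)) by class of protein, with the number of unigenes in brackets; color marks whether the 3 mature bottles lay all below, all above or among the 3 immature bottles. The core histones lie between −1.19 and −0.10, while the medians of acetyltransferases, methyltransferases and remodelers lie between 0.03 and 0.08; the remodeler at 1.24 is a unigene of 208 bases listed at 0 in 1 bottle.

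The H2B unigene DN2447_c0_g1 had the smallest p of the members. It had 147, 204 and 202 FPKM in immature bottles 1, 2 and 3 and 67.7, 101 and 76.9 FPKM in mature bottles 1, 2 and 3. All mature bottles lay well below the lowest immature bottle. Its mean fell from 185 ± 32.2 to 81.9 ± 17.3 FPKM (SD, n = 3 each), and its log2 ratio was −1.17 (SE of 0.20, adjusted p = 0.12 by limma). It passed the study's thresholds in each of the 6 fits that left out 1 bottle, with log2 ratios from −1.33 to −1.04.

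The other H2B unigenes had smaller log2 ratios. DN3587_c0_g1 had 101, 176 and 159 FPKM across the immature bottles versus 97.5, 89.5 and 91.6 FPKM across the mature ones, with a log2 ratio of −0.60 (SE of 0.21, adjusted p = 0.277). The groups did not overlap, but immature bottle 1 was only just above mature bottle 1. DN4133_c0_g1, the most abundant H2B, had 281, 366 and 323 FPKM against 284, 260 and 253 FPKM, with a log2 ratio of −0.28. Here mature bottle 1 lay above immature bottle 1, so the groups overlapped.

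Histone H3 was represented by 3 unigenes of 1 Trinity component, which differed widely in level and in log2 ratio. DN6875_c0_g3 had 45.6, 70.0 and 57.8 FPKM across the immature bottles versus 17.3, 33.6 and 24.7 FPKM across the mature ones. Its mean fell from 57.8 ± 12.2 to 25.2 ± 8.18 FPKM (SD, n = 3 each), a log2 ratio of −1.19 (SE of 0.27, adjusted p = 0.172). DN6875_c0_g1, matched to H3.2, had 258, 457 and 457 FPKM against 147, 214 and 194 FPKM, a log2 ratio of −1.04 (SE of 0.27, adjusted p = 0.194). In both of these the lowest immature bottle, bottle 1, was above the highest mature bottle, bottle 2. The remaining H3.2 unigene, DN6875_c0_g2, was the most abundant member and ranked 69 among all unigenes tested by mean FPKM. It had 1620, 1577 and 1624 FPKM across the immature bottles versus 1436, 1484 and 1576 FPKM across the mature ones, a log2 ratio of −0.10 (SE of 0.14, adjusted p = 0.762). Its groups were separated by 0.33 FPKM.

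The call at the study's thresholds depended on single bottles for both H3 unigenes that passed it. DN6875_c0_g1 did not reach a log2 ratio of −1 without immature bottle 2 (−0.91), without immature bottle 3 (−0.91) or without mature bottle 1 (−0.89), and DN6875_c0_g3 did not reach it without mature bottle 1 (−0.96). The members past the thresholds and lower in mature mycelia were then 1 without mature bottle 1, in place of 3. The abundance estimates came from RSEM, which divides fragments that fit several sequences among them, and how it divided those of the 3 similar H3 unigenes was not tested.

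Histone H4 had 2 unigenes. DN5693_c1_g2 had 108, 112 and 122 FPKM across the immature bottles versus 86.5, 84.6 and 87.3 FPKM across the mature ones, with a log2 ratio of −0.40 (SE of 0.09, adjusted p = 0.168). Bottles of a group were close together and the groups were apart. DN8880_c0_g1 had 123, 157 and 161 FPKM against 37.5, 65.6 and 138 FPKM, with a log2 ratio of −1.05 (SE of 0.45, adjusted p = 0.34). Mature bottles 1 and 2 were far below the immature bottles, while mature bottle 3 lay among them, and without mature bottle 3 the log2 ratio was −1.54 and passed the study's thresholds. This unigene is 4126 bases long, against 626 to 2304 bases for the other core histones.

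Of the 4 H2A unigenes, 3 had groups that did not overlap. DN7682_c0_g2 had 73.0, 84.4 and 84.9 FPKM across the immature bottles versus 57.5, 54.8 and 52.5 FPKM across the mature ones, a log2 ratio of −0.55 (SE of 0.10, adjusted p = 0.135). DN4573_c0_g1 had 68.9, 100.4 and 82.8 FPKM against 57.2, 52.2 and 39.3 FPKM, a log2 ratio of −0.75 (SE of 0.20, adjusted p = 0.197). DN7682_c0_g1 was nearer to even, with 69.0 ± 4.81 FPKM in immature mycelia against 54.2 ± 2.79 FPKM in mature mycelia (SD, n = 3 each) and a log2 ratio of −0.34. The weakly expressed DN3949_c0_g1 overlapped, since immature bottle 1 (9.62 FPKM) was below all mature bottles (12.7 to 14.6 FPKM), and its log2 ratio was −0.22.

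**Figure D2:**
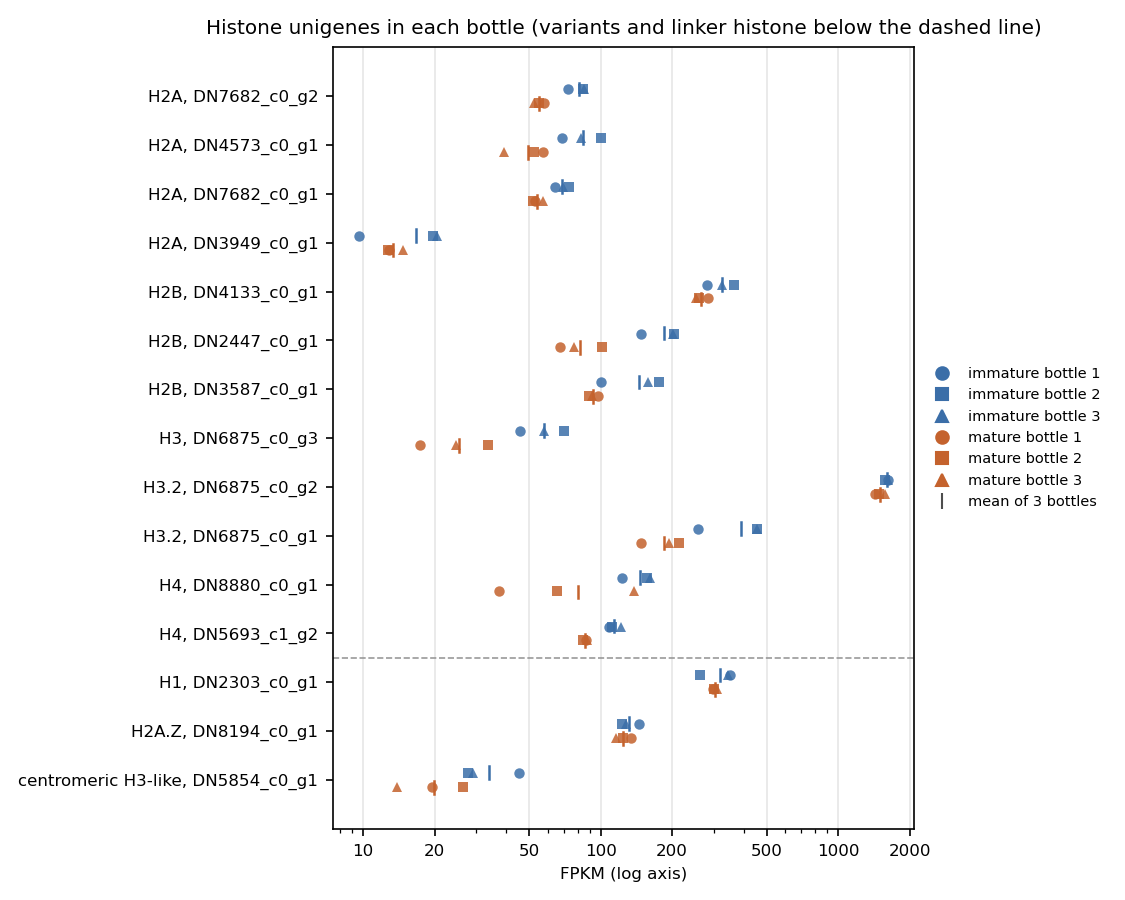
FPKM of the 12 core histone unigenes and, below the dashed line, of linker histone H1, H2A.Z and a centromeric H3-like protein in each of the 6 bottles, on a log axis; short lines are means of 3 bottles. Mature bottles lie left of the immature ones in most core histones, by most in DN2447_c0_g1, DN6875_c0_g3 and DN6875_c0_g1, and among them for H1 and H2A.Z.

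Bottles of 1 group also differed for the core histones as a set. Immature bottle 1 was the lowest immature bottle in 11 of the 12 core histones, whereas the lowest mature bottle was bottle 1 in 5, bottle 2 in 4 and bottle 3 in 3 of them. Without immature bottle 1 the groups were apart in each of the 12 core histones and their median log2 ratio was −0.73. Leaving out the lowest immature bottle widens the gap by construction, and fewer bottles separate more easily, so that count is description only. Over the fits that left out any other bottle the groups were apart in 9 or 10 core histones. The median was then between −0.59 and −0.48.

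Summed over the 12 unigenes, core histones had 2899, 3398 and 3363 FPKM across the immature bottles versus 2354, 2504 and 2605 FPKM across the mature ones. The sum in mature mycelia was 0.773 of that in immature mycelia. The H3.2 unigene DN6875_c0_g2 made up much of each sum. Without it, a choice made after its values were seen, the sums were 1279, 1821 and 1740 FPKM against 918, 1020 and 1029 FPKM, a ratio of 0.613. On either sum all mature bottles lay below all immature bottles.

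The 4 histones of the nucleosome stood on the same side. Summed FPKM of immature and mature mycelia was 250.5 ± 31.9 and 172 ± 8.51 for H2A, 653 ± 112 and 440.3 ± 16.3 for H2B, and 261 ± 27.0 and 166 ± 52.6 for H4 (SD, n = 3 each). For H3 the sums were 2055 ± 116 and 1709 ± 99.3 FPKM, and 449 ± 126 and 210 ± 42.1 FPKM without DN6875_c0_g2. The groups did not overlap in any of these 5 sums. The sums are on the FPKM scale, which is per length, and were not tested.

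The contrast with the remaining members was visible in each bottle. The mean of log2(FPKM + 1) over the 12 core histones was 6.81, 7.26 and 7.20 in the immature and 6.31, 6.51 and 6.52 in the mature bottles. Over the 76 other members it was 5.20, 5.23 and 5.15 against 5.24, 5.19 and 5.23. The difference between both means was thus 1.61, 2.03 and 2.05 in the immature and 1.08, 1.32 and 1.29 in the mature bottles. Core histones held 45.0% ± 2.91 of the members' summed FPKM in immature and 37.2% ± 1.42 in mature mycelia (SD, n = 3 each). In bulk RNA of this kind, fewer cells that make a transcript and less of it in each cell cannot be told apart.

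**Figure D3:**
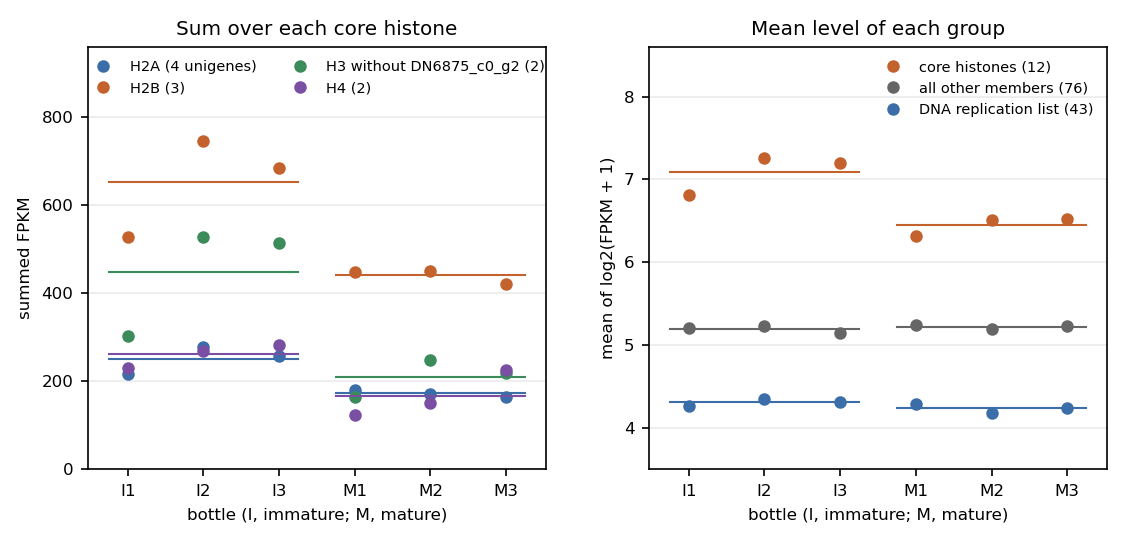
Left, summed FPKM of each core histone in immature (I1 to I3) and mature (M1 to M3) bottles, with H3 shown without DN6875_c0_g2; right, mean of log2(FPKM + 1) over the core histones, the other members and a list of DNA replication proteins, with horizontal lines for the means of 3 bottles. Every core histone sum is lower in all mature bottles than in all immature ones, while the other members stay between 5.15 and 5.24 and the DNA replication list between 4.18 and 4.35.

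Since core histones are made as DNA is copied, replication proteins were read beside them. The list held 43 tested unigenes, named for licensing factors, the sliding clamp PCNA, replicative polymerases, replication factors and ribonucleotide reductase. At the study's thresholds 2 of them fell, both named for the small chain of ribonucleotide reductase, and 0 rose. The groups overlapped in DN5906_c0_g1 (log2 ratio −1.17, adjusted p = 0.262 by limma), where mature bottle 2 lay just above immature bottle 1. They did not overlap in DN3407_c0_g2 (log2 ratio −1.10, adjusted p = 0.218 by limma). The list's median log2 ratio was −0.14, against −0.07 over all unigenes tested. The groups did not overlap in 9 lower and 6 higher unigenes of the list. Of all unigenes tested, 14.2% were lower and 8.69% higher without overlap, and 1.82% fell and 1.18% rose at the study's thresholds. The large chain of ribonucleotide reductase, which makes DNA precursors (DN5767_c0_g4), had 34.6 ± 3.90 FPKM in immature mycelia against 20.5 ± 3.22 FPKM in mature mycelia, a log2 ratio of −0.74 (SE of 0.15, adjusted p = 0.161), and its other unigenes had −0.38 (DN5767_c0_g1) and, in 299 bases, 0.48 (DN9798_c0_g1), all without overlap. The licensing helicase subunit mcm5 had a log2 ratio of 0.94 in a unigene of 273 bases (DN6055_c0_g1) and of −0.06, with overlap, in one of 2096 bases from the same component (DN6055_c0_g2). The catalytic subunit of DNA polymerase delta was higher without overlap in DN8372_c0_g1, DN8372_c0_g2 and DN8372_c1_g1 (616 to 1172 bases, log2 ratios 0.43, 0.66 and 0.45). Its piece of 293 bases overlapped (DN10360_c0_g1, 0.31). At an unadjusted p of at most 0.05 by limma, 6 unigenes of the list were lower and 4 higher, against 15.4% of all unigenes tested. PCNA had 40.3 ± 6.04 and 29.2 ± 1.76 FPKM, with all mature bottles below all immature ones (DN8053_c0_g1, log2 ratio −0.44, adjusted p = 0.233). Over the 11 unigenes of MCM proteins and PCNA the median was −0.06.

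The groups overlapped for the linker histone and for H2A.Z. Histone H1, DN2303_c0_g1, had 350, 261 and 344 FPKM across the immature bottles versus 296, 301 and 310 FPKM across the mature ones, a log2 ratio of −0.06 (SE of 0.14), and it was 0.0104 without immature bottle 1. H2A.Z, the variant found beside gene starts, DN8194_c0_g1, had 145, 124 and 128 FPKM against 134, 124 and 116 FPKM, a log2 ratio of −0.08 (SE of 0.11). The centromeric H3-like protein, on which kinetochores are built, had 45.3, 27.6 and 28.9 FPKM against 19.5, 26.2 and 13.8 FPKM in DN5854_c0_g1. Its groups did not overlap, though mature bottle 2 came within 1.39 FPKM of immature bottle 2, and its log2 ratio was −0.75 (SE of 0.29, adjusted p = 0.301).

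The 3 chaperones and assembly factors had log2 ratios below 0 and none passed a threshold. ASF1, which carries H3 and H4 dimers to sites of assembly, had 27.1, 30.6 and 28.7 FPKM across the immature bottles versus 26.4, 24.4 and 18.6 FPKM across the mature ones (DN1685_c0_g1, log2 ratio −0.32, SE of 0.16, adjusted p = 0.383). The subunit FAS2 of chromatin assembly factor 1, which deposits H3 and H4 behind the replication fork, had 18.3, 16.8 and 16.4 FPKM against 14.7, 14.9 and 13.8 FPKM (DN7896_c3_g14, log2 ratio −0.23). Both had all mature bottles below all immature ones, by 0.67 FPKM or more. The nucleosome assembly protein C364.06 was more abundant, at 146 ± 15.9 and 140 ± 6.50 FPKM (SD, n = 3 each), and its groups overlapped (DN8822_c0_g1). Outside the members, 11 unigenes of the chaperones FACT, HIR1 and SPT6 had a median log2 ratio of −0.05. The groups did not overlap in 1 of them, where the shares of all unigenes tested were 14.2% lower and 8.69% higher.

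The 8 acetyltransferase unigenes had log2 ratios from −0.68 to 0.99. Groups did not overlap in 2, both higher in mature mycelia, where the shares of all unigenes tested were 14.2% lower and 8.69% higher. The unigene matched to gcn5, the catalytic subunit of SAGA (DN6331_c0_g2), had 144, 121 and 94.6 FPKM across the immature bottles versus 226, 212 and 277 FPKM across the mature ones. Every mature bottle lay far above the highest immature one. The means were 120 ± 24.9 and 238 ± 34.3 FPKM (SD, n = 3 each), and the log2 ratio of 0.99 (SE of 0.19, adjusted p = 0.135) was just short of the study's threshold of 1, which it passed in 4 of the 6 fits without 1 bottle, with 1.14 without immature bottle 1, 1.01 without immature bottle 2, 1.03 without mature bottle 1 and 1.07 without mature bottle 2. The other unigene of the same Trinity component, DN6331_c0_g1, is matched to formate dehydrogenase and rose from 242 ± 73.8 to 561 ± 130 FPKM (log2 ratio 1.22, SE of 0.26, adjusted p = 0.161). Whether the assembly joined sequence of neighboring genes in this component was not tested.

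The other acetyltransferases were less separated. Rtt109, which acetylates newly made H3 together with ASF1, had 223, 96.1 and 157 FPKM across the immature bottles versus 204, 302 and 250 FPKM across the mature ones (DN9084_c0_g1, log2 ratio 0.73, SE of 0.32, adjusted p = 0.346). Immature bottle 1 was above mature bottle 1, and without immature bottle 1 the log2 ratio was 1.01, past the study's thresholds. Tip60 had 97.1, 77.7 and 90.6 FPKM against 141, 104 and 123 FPKM, with no overlap (DN8955_c0_g1, log2 ratio 0.46, SE of 0.15, adjusted p = 0.244). ESA1, like Tip60 an enzyme of the MYST family that acetylates H4, had the opposite sign, at 73.4, 114 and 87.0 FPKM against 77.2, 53.0 and 42.5 FPKM (DN2985_c0_g2, log2 ratio −0.68, SE of 0.26, adjusted p = 0.304). Mature bottle 1 lay above immature bottle 1 there, so its groups overlapped. The other 4 acetyltransferase unigenes had log2 ratios from −0.13 to 0.09.

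**Figure D4:**
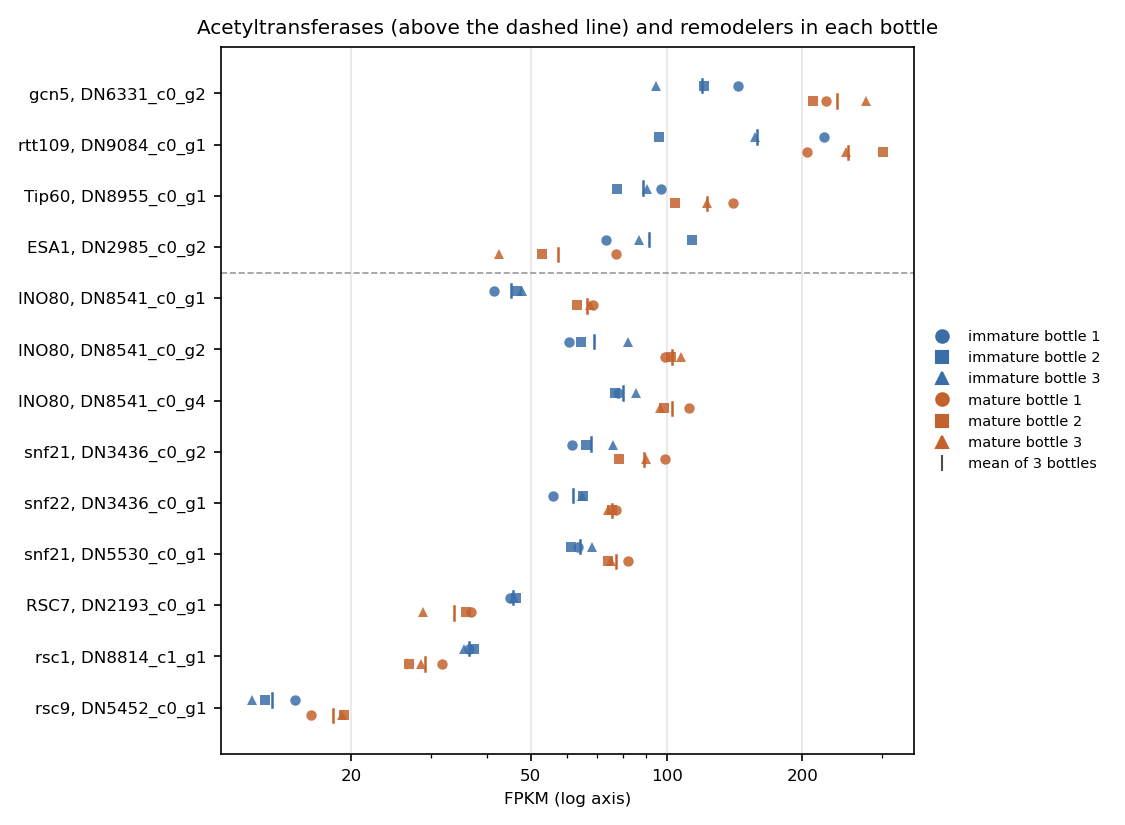
FPKM of 4 acetyltransferases and 9 remodelers in each of the 6 bottles, on a log axis; short lines are means of 3 bottles. Mature bottles lie right of all immature ones for gcn5, Tip60, the INO80 unigenes, 3 unigenes named snf21 or snf22 and rsc9, left of them for RSC7 and rsc1, and among them for rtt109 and ESA1.

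The 11 deacetylase unigenes had a median log2 ratio of −0.04. The groups did not overlap in 3, all lower in mature mycelia, where the shares of all unigenes tested were 14.2% lower and 8.69% higher. HST3, a sirtuin that in budding yeast removes the acetyl group that Rtt109 sets, had 5.70, 8.44 and 7.19 FPKM across the immature bottles versus 4.02, 4.03 and 3.44 FPKM across the mature ones (DN7153_c0_g2, log2 ratio −0.74, SE of 0.22, adjusted p = 0.231). The deacetylase phd1 had 9.56, 9.24 and 10.2 FPKM against 5.01, 5.77 and 7.18 FPKM (DN1496_c0_g1, log2 ratio −0.62, SE of 0.19, adjusted p = 0.226). Both were among the weakly expressed members and both groups were clearly apart in each. A second HST3 unigene, DN8725_c0_g2, was more abundant, with 48.7 ± 6.61 and 43.9 ± 5.70 FPKM (SD, n = 3 each), and overlapped. The subunit cti6 of a deacetylase complex had 66.6 ± 4.39 and 58.9 ± 2.23 FPKM (DN3970_c0_g2, log2 ratio −0.17), with mature bottle 3 only just below immature bottle 3. The general deacetylases RPD3, at 16.6 and 16.7 FPKM (DN4322_c0_g1), and clr6, at 48.2 and 46.7 FPKM (DN7571_c0_g1), had means that were nearly even. The 3 unigenes of component DN3017, 2 named clr3 and 1 named histone deacetylase 5, matched 1 Nr protein and had log2 ratios of 0.14, 0.32 and 0.36, with overlap in each. In the first, DN3017_c0_g1, the mean FPKM had the opposite direction, at 11.1 in immature and 9.74 in mature mycelia, with immature bottle 3 at 22.1. The remaining unigenes, histone deacetylase 8 (DN7370_c1_g1, log2 ratio −0.09) and an Rpd3 piece (DN4322_c0_g2, 0.22), overlapped as well.

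The methyltransferases showed the smallest range of the larger classes. Their 9 log2 ratios lay between −0.34 and 0.27. None reached an unadjusted p of 0.05 by limma, where the share of all unigenes tested was 15.4%. In 1 the groups did not overlap, where the shares of all unigenes tested were 14.2% lower and 8.69% higher. That was DN5961_c0_g2, named for methylation of H3 at the lysine that SET2 marks along transcribed genes, with 29.7, 32.0 and 29.2 FPKM across the immature bottles versus 32.2, 33.6 and 36.9 FPKM across the mature ones (log2 ratio 0.17). The groups were only 0.23 FPKM apart. TRX1, of the trithorax type that marks active genes, had 25.0 ± 3.51 and 30.4 ± 4.32 FPKM (DN2806_c0_g1, log2 ratio 0.27), and EZH1, of the Polycomb type that marks silenced genes, had 35.6 ± 2.72 and 30.7 ± 5.18 FPKM (DN9063_c1_g2, log2 ratio −0.22). The pair of unigenes named for heterochromatic methylation of H3 had opposite signs, −0.34 in DN2831_c0_g1 and 0.20 in DN7542_c0_g1, and overlapped. The other 4 had log2 ratios from −0.18 to 0.09 with overlap, and the least abundant member, eggless (DN2498_c0_g3), was listed at 0 in immature bottle 3 and mature bottle 1. Eggless, of 320 bases, and DN2831_c0_g1, of 507 bases, matched 1 Nr protein. The class median, 0.03, was −0.11 without mature bottle 3.

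Of the 2 histone demethylation proteins of the JmjC type, DN9791_c0_g1 had 51.3, 44.8 and 42.3 FPKM across the immature bottles versus 38.8, 32.6 and 26.9 FPKM across the mature ones (log2 ratio −0.49, SE of 0.16, adjusted p = 0.25). All mature bottles were below all immature bottles. The second, DN2673_c0_g1, had 20.5 ± 1.47 and 20.2 ± 1.06 FPKM and a log2 ratio of −0.02, whose sign depended on the scaling (0.0361 with quantile normalization).

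Among further subunits of modifying complexes, EAF6 was the member that rose at the study's thresholds. It had 28.7, 17.6 and 27.4 FPKM across the immature bottles versus 42.1, 89.1 and 36.5 FPKM across the mature ones (DN7734_c1_g2, log2 ratio 1.07, SE of 0.37, adjusted p = 0.27). Mature bottle 2 stood far above the rest, and the unigene is 251 bases long. Without mature bottle 2 the log2 ratio was 0.68, and it also failed the thresholds without immature bottle 1, 2 or 3 (1.19, 0.86 and 1.16). EAF3, a chromodomain subunit shared by acetyltransferase and deacetylase complexes, had 25.5, 30.6 and 25.5 FPKM against 19.8, 19.8 and 21.2 FPKM (DN1607_c0_g1, log2 ratio −0.40, SE of 0.12, adjusted p = 0.222). The groups were apart, with the mature bottles close to each other. The scaffold EAF1 (DN8018_c1_g1, log2 ratio −0.07) and the SAGA subunits SGF73 (DN8862_c0_g2, 0.06), spt3 (DN8884_c1_g2, 0.28) and spt20 (DN9097_c1_g8, −0.24) overlapped. Their difference from gcn5 was not tested.

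Remodelers were the largest class, with 32 unigenes matched to 20 Nr proteins. The groups did not overlap in 4 lower and 7 higher unigenes, where the shares of all unigenes tested were 14.2% and 8.69%, and the median log2 ratio was 0.03. Because several unigenes can be pieces of 1 gene, they are given by complex. Unigenes of this class outside the fixed rule for naming were picked after their values were seen, so that each complex could be shown whole.

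The ATPase of the INO80 complex, which slides nucleosomes at gene starts and replication forks, was matched by 3 unigenes of 1 component and 1 Nr protein. DN8541_c0_g1 had 41.5, 46.5 and 47.8 FPKM across the immature bottles versus 68.7, 63.3 and 67.7 FPKM across the mature ones (log2 ratio 0.55, SE of 0.10, adjusted p = 0.126). DN8541_c0_g2 had 60.7, 64.5 and 82.3 FPKM against 99.0, 102 and 108 FPKM (log2 ratio 0.58, SE of 0.14, adjusted p = 0.178). DN8541_c0_g4 had 77.8, 76.8 and 85.6 FPKM against 112, 98.7 and 96.8 FPKM (log2 ratio 0.35, SE of 0.10, adjusted p = 0.216). In all 3 every mature bottle was above every immature bottle, and as pieces that match 1 protein they are not 3 independent results. The other subunit of this complex, INO80 complex subunit 1 (DN7636_c1_g3), had 90.2 ± 24.0 and 101 ± 2.97 FPKM and overlapped, and its log2 ratio of 0.20 was −0.0215 without immature bottle 1.

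The ATPases of the SWI/SNF and RSC complexes, named snf21 and snf22, were matched by 6 unigenes of 3 Nr proteins. The 3 unigenes of the first protein were higher in all mature than in all immature bottles, with log2 ratios of 0.39 in DN3436_c0_g2, 0.28 in DN3436_c0_g1 and 0.26 in DN5530_c0_g1 (adjusted p = 0.262, 0.265 and 0.28). DN3436_c0_g1 had 56.1, 65.4 and 64.9 FPKM across the immature bottles versus 77.3, 75.9 and 74.1 FPKM across the mature ones. The 2 unigenes of the second protein had log2 ratios of −0.04 (DN4047_c0_g1) and −0.07 (DN2251_c0_g1), and that of the third had 0.09 (DN8851_c0_g1), all with overlap.

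The accessory subunits of RSC had mixed signs. RSC7 had 45.1, 46.4 and 45.8 FPKM across the immature bottles versus 36.9, 35.9 and 28.8 FPKM across the mature ones (DN2193_c0_g1, log2 ratio −0.43, SE of 0.12, adjusted p = 0.214). The bromodomain subunit rsc1 had 36.5, 37.4 and 35.5 FPKM against 31.7, 26.9 and 28.6 FPKM (DN8814_c1_g1, log2 ratio −0.32, SE of 0.10, adjusted p = 0.25), and sfh1 had a log2 ratio of −0.21 (DN7745_c0_g2). All mature bottles lay below all immature bottles in these 3. The DNA-binding subunit rsc9 lay on the other side without overlap, at 15.0, 12.9 and 12.1 FPKM against 16.2, 19.3 and 19.1 FPKM (DN5452_c0_g1, log2 ratio 0.42, SE of 0.14, adjusted p = 0.26). SNF5, a core subunit of SWI/SNF (DN6149_c0_g1), had 91.2 ± 5.81 and 91.1 ± 5.12 FPKM (SD, n = 3 each).

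The remodelers of the ISWI, SWR1 and CHD types showed little difference. The 5 unigenes with ISWI in their name overlapped. Of these, 4 had log2 ratios from −0.09 to 0.06, and the fifth, DN3046_c0_g1, 208 bases long, was listed at 0 in immature bottle 3 but had 38.7 and 70.0 FPKM in bottles 1 and 2 of that group. The helicase SWR1, which puts H2A.Z into nucleosomes, had log2 ratios of 0.12 (DN8731_c0_g1) and 0.15 (DN8731_c0_g2), and SWR1-complex protein 4 had −0.12 (DN2956_c0_g1) and −0.04 (DN2956_c0_g3). The pair of mit1 unigenes, a remodeler of the CHD type in heterochromatin, had 0.05 and −0.01 (DN2071_c0_g1 and DN2071_c0_g2). A unigene of 404 bases that matched the same Nr protein, named CHROMATIN REMODELING 4, had 0.06 (DN4301_c0_g4). The groups did not overlap in 1 of these unigenes, DN2956_c0_g1, at 22.1 ± 0.987 and 20.4 ± 0.404 FPKM. The remaining remodelers, among them the actin-related protein arp9 (DN5365_c0_g1), had log2 ratios from −0.27 to 0.17 and overlapped. They included SWI/SNF-related subfamily A member 5 (DN4936_c0_g1, −0.26), counted here apart from the unigenes named ISWI. Another was ngg1 (DN7719_c0_g1, −0.08), placed in this class only because its name holds the word remodeling.

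The last 2 members bind chromatin without modifying it. The abundant high-mobility group protein NHP6, DN5920_c0_g1, had 246, 263 and 245 FPKM across the immature bottles versus 215, 244 and 230 FPKM across the mature ones (log2 ratio −0.13, SE of 0.10, adjusted p = 0.556), with all mature bottles below all immature ones by a narrow margin. The heterochromatin protein swi6 (DN9177_c0_g2) had 44.8 ± 6.99 and 38.5 ± 2.40 FPKM and overlapped.

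Members shared more than their names. The eggNOG category for chromatin structure and dynamics was given to 60 of the 88 members, and 80 had their best Nr match in *Pleurotus ostreatus*. Of the 12 core histones 10 had this category. The long unigenes DN7682_c0_g2 (H2A, 2304 bases) and DN8880_c0_g1 (H4, 4126 bases) were without it, and whether they hold sequence of another gene was not tested. The 88 unigenes matched 73 Nr proteins, 9 Nr proteins had several members, and 9 members were shorter than 500 bases. Each of the 12 core histones matched a different Nr protein. By median of the mean FPKM, core histones (107) stood above remodelers (42.1), methyltransferases (22.4), deacetylases (20.1) and all unigenes tested (28.1).

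Chromatin proteins that the rule did not take in were read for comparison. A list of 71 such unigenes, with condensins, cohesins, bromodomain proteins, RuvB-like helicases, topoisomerase 2 and others, had 0 past the study's thresholds, a median log2 ratio of −0.07 and groups without overlap in 14 lower and 5 higher unigenes. Of all unigenes tested, 14.2% were lower and 8.69% higher without overlap, and 1.82% fell and 1.18% rose at the study's thresholds. RuvB-like helicase 2, a subunit common to the INO80 and SWR1 complexes, had 77.7, 72.8 and 63.2 FPKM across the immature bottles versus 42.8, 43.6 and 44.8 FPKM across the mature ones (DN2676_c0_g2, log2 ratio −0.69, SE of 0.11, adjusted p = 0.106). Its other unigene was also without overlap (DN2676_c0_g1, log2 ratio −0.37), on the opposite side from the INO80 ATPase unigenes, and its partner RuvB-like helicase 1 overlapped (DN5382_c0_g1, 0.12). Topoisomerase 2, which untangles copied DNA, was matched by 4 unigenes that did not go 1 way. The longest had 30.2 ± 1.82 and 19.6 ± 1.06 FPKM (DN8244_c0_g3, log2 ratio −0.60, SE of 0.11, adjusted p = 0.126), all mature bottles being lower. In DN8244_c0_g4 of the same component all mature bottles were higher, with 10.3 ± 2.68 and 14.8 ± 1.46 FPKM (log2 ratio 0.51, adjusted p = 0.324), and the remaining pair overlapped, at −0.11 (DN4974_c0_g2) and −0.13 (DN8244_c0_g5). Over the 124 other tested unigenes of the same eggNOG category the median log2 ratio was −0.04, with 1 lower and 1 higher at the study's thresholds. Their groups did not overlap in 22 lower and 8 higher unigenes, near the shares of all unigenes tested given above. Their log2 ratios lay between −2.51 and 1.72. Of these 124, 1 had an adjusted p under 0.05 by limma (0.024), against 0.0667% of all unigenes tested.

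Other material and scaling were checked over the same bottles. Markers of plant substrate matched 0 unigenes. The 9 unigenes of fruiting tissue and aerial hyphae were all fruiting body proteins SC1 or SC3, and none was at 0 in any bottle. They summed to between 671 and 814 FPKM in the immature and between 551 and 570 FPKM in the mature bottles. At the study's thresholds 1 was lower and 1 higher, where the shares of all unigenes tested were 1.82% and 1.18%. The part of these 9 unigenes in the lower core histone values was not tested. The 14 housekeeping unigenes had a median log2 ratio of −0.06, with single values from −0.33 to 0.61. Of them 2 had an unadjusted p of at most 0.05 by limma, both higher in mature mycelia, against 15.4% of all unigenes tested. These were Actin-1 (DN6531_c0_g1, log2 ratio 0.29) and a glyceraldehyde-3-phosphate dehydrogenase (DN9215_c1_g1, 0.41, with overlap). FPKM over all unigenes summed to between 1206300 and 1238510 per library.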

How the data were processed

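RNA of 3 bottles each of immature and mature mycelia was sequenced with a strand-marking mRNA kit. The authors assembled clean reads with Trinity and TGICL and estimated abundance with RSEM; the strand setting is not given in the sources used here. The deposited values are FPKM per unigene and library, with unigene length in bases as another column, without fragment counts. Among unigenes of 500 to 599 bases the smallest FPKM above 0 was 0.18 to 0.25 per library. The authors tested with DESeq2, which needs counts. All columns were mapped to bottles by name (0 unmapped).

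Here log2(FPKM + 1) of unigenes with a mean FPKM above 1 was fitted with limma 3.58.1 in R 4.3.3 (lmFit, eBayes with trend, two-sided, no covariates), with Benjamini-Hochberg adjustment over 16496 unigenes, after testing on simulated data. Classes and comparison lists (DNA replication, other chromatin proteins, housekeeping, fruiting tissue, plant substrate) were set by words in the Swiss-Prot names. Named were all histones, and in each other class members past a threshold, the 2 most abundant, the largest rise and fall and up to 4 without overlap; others were picked after their values were seen. Members and lists were chosen with earlier results of these data known. Alternatives were other pseudocounts, filters, scalings, variance priors, a replicate block and leaving out each bottle. Python 3.11.15 with matplotlib 3.10.9 drew the figures.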

Additional observations from a re-analysis of the deposited data

How the results depend on the processing

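The core histones kept log2 ratios below 0 in 12 of 12 unigenes under every alternative that was fitted, and their median ranged from −0.73 to −0.48 over the fits without 1 bottle. The count of members lower at the study's thresholds ranged from 1 to 4 over those fits, and that of members higher from 0 to 2. With median scaling 2 members were lower, since DN6875_c0_g1 came to −0.997. The count of higher members, 1, became 2 with quantile normalization (DN6331_c0_g2) or median scaling and 0 in unigenes of at least 500 bases, where EAF6 is left out. In the latter, with fewer unigenes tested, 1 member in place of 0 had an adjusted p under 0.05 by limma. With the replicate numbers as a block, 0 members were higher and 4 lower. Same-numbered bottles did not deviate together (r = −0.0894, −0.0431 and −0.00969 for bottles 1, 2 and 3), so the numbers share only a label and the block is given as a check. The block left 8 core histones at an unadjusted p of at most 0.05 by limma. That count was 7 with median scaling and 7 to 10 over the fits without 1 bottle. Core histones with groups that did not overlap were 8 with median scaling, in place of 9. The ratio of core histone sums was 0.613 without DN6875_c0_g2. The median of methyltransferases ranged from −0.11 to 0.15 without 1 bottle. Without 1 bottle the sign turned in 25 of the 88 members, 6 of them among the 46 chosen by the naming rule. Of these 6, other settings turned DN2673_c0_g1 with quantile normalization (0.0361) and median scaling (0.0279), and DN9161_c0_g1 with libraries scaled to equal sums (−0.0121). Without 1 bottle the log2 ratios of the 6 ranged from −0.20 to 0.0104 for DN2303_c0_g1, from −0.0670 to 0.0311 for DN2673_c0_g1, from −0.0215 to 0.37 for DN7636_c1_g3, from −0.14 to 0.0105 for DN8822_c0_g1, from −0.0196 to 0.16 for DN8862_c0_g2 and from −0.0722 to 0.13 for DN9161_c0_g1. The causes were not tested. Scaling moved the median of all unigenes from −0.07 to between −0.08 and −0.00. With 3 bottles per group and no counts, differences smaller than the spread between bottles could not be resolved.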
